A study of Saccharomyces cerevisiae with 8 samples.

Results

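The expression of yeast genes in 3 industrial strains of Saccharomyces cerevisiae was set against that in the laboratory strain BY4741 when a fermentation assay began (T0h). The comparison rests on 3 of the 8 arrays of the series, those of PE-2, JP1 and CAT-1 at T0h, chosen by their labels. The industrial strains are diploids that came from Brazilian sugarcane mills, of which PE-2 and CAT-1 are labelled heterothallic and JP1 homothallic. BY4741 is a haploid of mating type a from a public strain collection and lacks working HIS3, LEU2, MET17 and URA3 genes. All strains had been passed through daylong batches in rich glucose medium, and no agent was added. On each array the RNA of an industrial strain was labelled with Cy5 (red) and that of BY4741 at T0h with Cy3 (green). The same BY4741 stage served all arrays, so it counts as 1 control and its own spread is left out. The replicates are 1 array of each of 3 different strains, so p-values measure the spread between strains and arrays together. The dyes were not swapped on these arrays, and dye and strain type cannot be told apart in the ratios. The other 5 arrays hold JP1, CAT-1 and BY4741 after 6 h (T6h), and those of the slide that also carried the T0h arrays are quoted below as values without a test.

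Laboratory strains such as BY4741 descend from S288C, a strain bred for genetics, and carry known defects in regulators and transporters that wild and industrial yeasts have intact. In haploid cells of either mating type a set of haploid-specific genes for mating is active, and in a/alpha diploids a repressor made of both mating-type proteins turns them off. Fuel ethanol strains are known for rapid fermentation of cane sugar, for tolerance of stress and for extra copies of vitamin B1 and B6 genes near chromosome ends. After glucose is used up, yeast respires ethanol, stores trehalose and glycogen and slows the making of ribosomes.

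All 3 arrays lay on 1 slide and were scanned together. Gene probes well above background made up 91.7% to 97.7% in red and 89.0% to 90.2% in green, and no spot was saturated. The median red signal was 1360 for PE-2, 311 for JP1 and 585 for CAT-1, against green medians of 417 to 465 for BY4741. The log2 ratios of the repeat spots of a probe had Spearman correlations of 0.973 to 0.982. The measured log ratios of the added control RNAs followed their known ratios with slopes of 0.953, 0.946 and 0.800 for PE-2, JP1 and CAT-1. The correlations were 0.979, 0.967 and 0.899, so the slope of CAT-1 is the least sure. Among these control RNAs the CAT-1 ratios were the most compressed, and whether this holds for the genes was not tested. In the deposited table of processed values the columns named for PE-2, JP1 and CAT-1 at T0h correlated at only 0.158, 0.303 and 0.145 with the scanner files of those samples, and a column named CAT-1 T6h correlated at 0.934 with the mean of the T0h arrays. That table therefore entered no comparison, and every value here follows the names of the scanner files.

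Industrial strains and BY4741 differed in many genes at the start of the assay. CTR3, a copper transporter, stood far above all others, with a red signal of 44059 in PE-2, 14792 in JP1 and 12439 in CAT-1, against green signals of 135, 134.5 and 132 for BY4741 on the same arrays. Next in size among genes with a standard name came URA3, which BY4741 lacks, and COX1 of the mitochondrial genome. They were followed by IME4, a meiosis gene, and SFA1, a dehydrogenase of long-chain alcohols and formaldehyde. Far lower in the industrial strains were HXK1, a hexokinase, PHO89, a phosphate transporter, HSP26, a small heat shock protein, and genes of the haploid mating pathway. Of 5938 genes tested, 1939 had a limma adjusted p under the threshold of 0.05, or 32.7%. Higher in the industrial strains were 902 genes, or 15.2%, and lower were 1037, or 17.5%. At least 2-fold different were 773, or 13%, of which 298 were higher and 475 lower, and 6 were higher and 23 lower by at least 8-fold. The median log2 ratio over all genes was 0.00. Without the CAT-1 array, and so with 2 strains, 532 genes passed (203 higher, 329 lower), of which 525 were among the 1939. Without PE-2 1937 passed, and without JP1 1603.

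**Figure D1:**
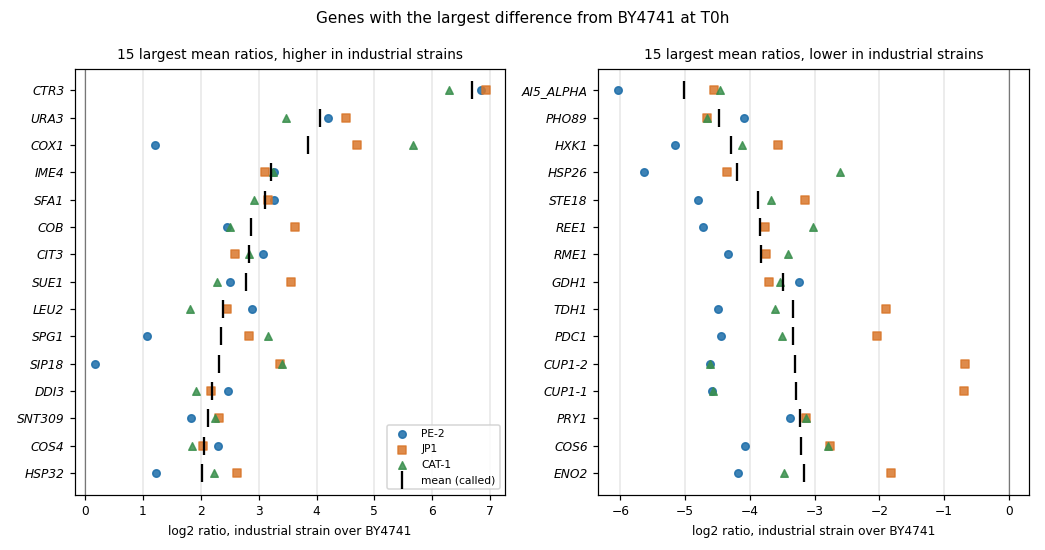
Log2 ratio (x axis) of the 15 named genes with the largest mean ratio in each direction among those called with the same sign on all 3 arrays. Points are single arrays of PE-2, JP1 and CAT-1 and the bars are their mean; CTR3 stands alone at 6.68, and in CUP1-1 and CUP1-2 JP1 lies near -0.7 while PE-2 and CAT-1 lie near -4.6.

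CTR3 had log2 ratios of 6.84 in PE-2, 6.92 in JP1 and 6.29 in CAT-1, a mean of 6.68 ± 0.19 (SE, n = 3 strains; limma adjusted p 5.35e-05) or 103-fold. The strains lay close together. The S288C lineage is known for a transposon in the CTR3 promoter that shuts the gene off. At 6 h the JP1 array lay above the BY4741 array by 1.52 and the CAT-1 array lay at -0.23 to it, both on the log2 scale. That CAT-1 array was dim, with a red median of 60, against 368.75 for JP1 and 234 for BY4741. Its 6 h values, here and below, are therefore less sure. SFA1 had log2 ratios of 3.26, 3.16 and 2.92 in PE-2, JP1 and CAT-1, a mean of 3.11 ± 0.16 (SE, n = 3; limma adjusted p 0.000473). It was also above BY4741 at 6 h, by 2.16 in JP1 and 1.94 in CAT-1. CIT3, a mitochondrial citrate and methylcitrate synthase, was at 3.08, 2.60 and 2.83, a mean of 2.83 ± 0.17 (limma adjusted p 0.00066). SUE1, a mitochondrial protein for the removal of unstable cytochrome c, averaged 2.78, DDI3, a cyanamide hydratase with a near-identical copy, 2.18, and SNT309, a splicing factor, 2.12. In each of these genes every strain lay above BY4741.

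At the other end, PHO89 had log2 ratios of -4.10 in PE-2, -4.66 in JP1 and -4.66 in CAT-1, a mean of -4.47 ± 0.18 (SE, n = 3; limma adjusted p 0.000319). The BY4741 array at 6 h gave -4.99 against BY4741 at T0h, so the level was low there too. GDH1, the main glutamate dehydrogenase for taking up ammonium, averaged -3.49 ± 0.17 (limma adjusted p 0.000399) with a range of -3.70 to -3.24. REE1, a regulator of the enolase ENO1, averaged -3.84, and PRY1, a sterol-binding secreted protein, -3.22. Among genes without a standard name, chosen after their values were seen, YER138W-A and YBL107W-A averaged -4.81 and -4.78, with green signals of 72124 to 81999 for YER138W-A. YER053C-A averaged 3.57. The files and the gene table give no function for these.

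The genes that BY4741 lacks lay as the labels of the scanner files have them. They set BY4741 apart and cannot tell the industrial strains from each other. URA3, of uracil synthesis, had red signals of 3843 in PE-2, 1213 in JP1 and 1268 in CAT-1, against 86.5, 77 and 97.25 for BY4741, which was not well above background. Its measured mean ratio was 4.06, and it was at least 16.7-fold higher in the industrial strains (limma adjusted p 0.00054). Such bounds set the bright side against the dim side's own signal, or against the dimmest signal well above background where that was larger. Signals were taken per channel after loess and Aquantile normalisation, and the bounds remain open to dye bias. For URA3 the dim side's own signal was the larger, so its bound equals the measured ratio. LEU2, of leucine synthesis, was at least 4.76-fold higher (measured mean ratio 2.38, limma adjusted p 0.00202). HIS3, of histidine synthesis, was at least 3.20-fold higher (measured 1.88, limma adjusted p 0.0058), and MET17, of sulfide assimilation, at least 2.10-fold (measured 1.45, limma adjusted p 0.012). On the BY4741 array at 6 h these genes lay between -0.19 and 0.02. In all, 214 of the 5938 genes had a BY4741 side not well above background, and 3 had such an industrial side. Those 3 were DAN1, an anaerobic mannoprotein, HUG1, an inhibitor of ribonucleotide reductase, and YMR031W-A. The channels differed in their floor. Negative control spots averaged 66.9 to 72.3 in green, which held BY4741, and 20.7 to 25.9 in red, which held the industrial strains. Channel and strain type therefore cannot be told apart in the counts of 214 and 3.

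Haploid mating genes were lower in the industrial strains. STE18, the gamma subunit of the pheromone-response G protein, had log2 ratios of -4.81 in PE-2, -3.15 in JP1 and -3.68 in CAT-1, a mean of -3.88 ± 0.31 (SE, n = 3; limma adjusted p 0.00163). RME1, a haploid repressor of meiosis, was at -4.34, -3.75 and -3.41, a mean of -3.83 ± 0.21 (limma adjusted p 0.00054). In both genes all strains lay far below BY4741. NEJ1, which haploid cells need to join broken DNA ends, averaged -2.15, STE5, the scaffold of the pheromone kinases, -2.02, and RDH54, a recombination translocase, -1.65. FUS3, the pheromone MAP kinase, averaged -1.37 and STE4, the G protein beta subunit, -1.34. Of 17 haploid-specific genes, 10 were lower and 2 higher (median -0.86), or 7 and 0 without the CAT-1 array and 10 and 0 without JP1, against 17.5% lower and 15.2% higher over all genes. The call of FAR1 (-0.63), a cell cycle inhibitor of the mating response, was lost without any 1 of the arrays. That of AXL1 (-0.59), a pheromone protease, was lost without PE-2 or CAT-1, and that of SST2 (-0.86), which damps the G protein, without CAT-1. The higher members of the list were MATALPHA1 (0.99) and HMLALPHA1 (1.11), copies of the alpha1 regulator. Their sequences are the same over most of their length, so their probes cannot be told apart and give in effect 1 measurement. They belong to the alpha mating type and BY4741 is of type a, so they are not genes active in haploids of either type. In these JP1 was highest, at 1.76 and 1.98, and the calls were lost without JP1 or CAT-1. HO, the mating-type switching endonuclease, was at -1.07, -0.66 and 0.03 in PE-2, JP1 and CAT-1 and was not called.

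Of 7 a-specific genes, 3 were lower and 0 higher (median -0.57), against 17.5% lower and 15.2% higher over all genes. ASG7, a regulator of pheromone signalling, was at -1.86 in PE-2, -1.17 in JP1 and -1.81 in CAT-1, a mean of -1.62 ± 0.19 (SE, n = 3; limma adjusted p 0.00354). MFA2, an a-factor gene, averaged -1.38, and BAR1, the protease that cleaves alpha-factor, averaged -0.57 and lost its call without PE-2 or CAT-1. MFA1, the other a-factor gene, was at -2.02, -0.39 and 0.10, so that PE-2 stood apart, and it was not called. STE2, the alpha-factor receptor, was at -0.52 (limma adjusted p 0.0820). Of 3 alpha-specific genes kept, 0 were called by limma and 0 at an unadjusted p under 0.05 (means of -0.31 to 0.23). Neither a haploid of mating type a nor a diploid is known to express these. Genes that diploids use to enter meiosis held a large difference of their own. IME4, an RNA methyltransferase that in haploids is silenced by an antisense transcript, had log2 ratios of 3.27, 3.11 and 3.25 in PE-2, JP1 and CAT-1, a mean of 3.21 ± 0.15 (limma adjusted p 0.000399). The strains hardly differed from each other. At 6 h IME4 lay above BY4741 by 2.58 in JP1 and 1.00 in CAT-1, while STE18 lay at -4.01 and -1.94. Of 14 meiosis entry genes 3 were higher and 1 lower, or 1 and 0 without CAT-1 and 1 and 1 without PE-2. Of 15 pheromone response genes 2 were higher and 2 lower, or 1 and 1 without CAT-1 and 4 and 3 without PE-2. PRM2, a pheromone-induced membrane protein, averaged -2.47. KAR4, a mating and meiosis transcription factor, averaged 1.23.

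**Figure D2:**
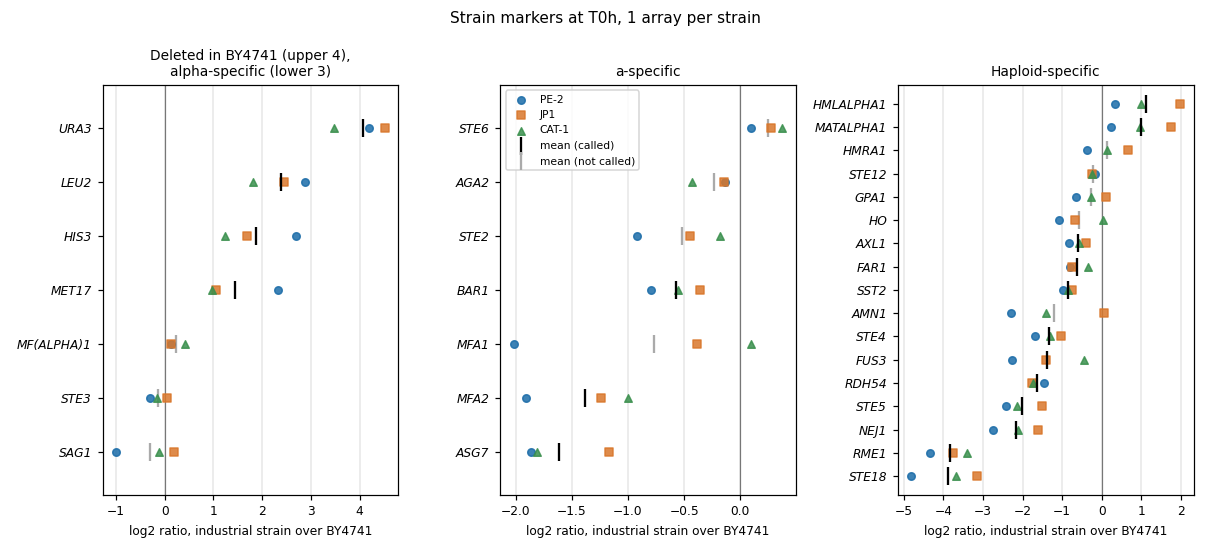
Log2 ratio (x axis) of genes deleted in BY4741, alpha-specific, a-specific and haploid-specific genes, with 1 point per strain and a bar at the mean, black where limma's adjusted p was under 0.05. The deletion markers lie between 0.97 and 4.51, and STE18 and RME1 lie below -3 in all strains.

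Genes of glycolysis and ethanol formation were lower in the industrial strains at the start. Of 21 measured, 16 were lower and 0 higher by limma (18 and 0 at an unadjusted p under the threshold), with a median of -1.82, against 17.5% lower and a median of 0.00 over all genes. The list median was -2.27 in PE-2, -1.27 in JP1 and -1.69 in CAT-1, and without the CAT-1 array 13 members passed. HXK1, the hexokinase of glucose-poor cells, had red signals of 1348, 1247.5 and 1082 in PE-2, JP1 and CAT-1, against green signals of 15427.5, 13971 and 14993 for BY4741. Its log2 ratios were -5.16, -3.57 and -4.13, a mean of -4.29 ± 0.30 (SE, n = 3; limma adjusted p 0.00119). TDH1, a glyceraldehyde-3-phosphate dehydrogenase, was at -4.50, -1.90 and -3.61, a mean of -3.34 ± 0.45 (limma adjusted p 0.00453). PDC1, the main pyruvate decarboxylase, was at -4.45, -2.04 and -3.51, a mean of -3.33 ± 0.42 (limma adjusted p 0.00361). The enolases ENO2 and ENO1 averaged -3.16 and -3.09. In TDH1, PDC1, ENO2 and ENO1 JP1 lay nearest to BY4741 and still below it, at -2.04 to -1.18. The other sugar kinases HXK2 and GLK1 averaged -2.50 and -2.35, with JP1 the lowest in both. CDC19, pyruvate kinase, averaged -2.33, GPM1, phosphoglycerate mutase, -2.24, and ADH1, the main alcohol dehydrogenase of fermentation, -1.74. Not called were PFK1 and PFK2, the subunits of phosphofructokinase (0.11 and -0.53), FBA1, aldolase (-0.09), TPI1, triose phosphate isomerase (-0.13), and PDC6, a minor decarboxylase (-0.54).

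At 6 h these genes stood otherwise. ENO2 in the JP1 and CAT-1 arrays lay 0.76 and 0.23 above BY4741, PDC1 at -0.06 and -0.58 to it, and HXK1 5.20 and 3.30 above it, as differences of log2 ratios between single arrays on the same slide. On the BY4741 array at 6 h ENO2 and PDC1 were 3.50 and 3.57 above BY4741 at T0h, while HXK1 was at -3.32. The signals of CAT-1 at 6 h were dim, with a red median of 60.

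Storage carbohydrate genes followed the same direction. Of 18 trehalose and glycogen genes, 12 were lower and 1 higher (median -0.94), against 17.5% lower and 15.2% higher over all genes. TPS1, trehalose-6-phosphate synthase, was at -2.17 in PE-2, -1.71 in JP1 and -2.04 in CAT-1, a mean of -1.97 ± 0.17 (SE, n = 3; limma adjusted p 0.00172). GPH1, glycogen phosphorylase, averaged -2.28, GSY2, the main glycogen synthase, -1.81, and UGP1, which makes UDP-glucose, -1.61. ATH1, the acid trehalase, was the higher one, at 1.01. The neutral trehalases NTH1 and NTH2 lay at 0.02 and -0.04. When the CAT-1 array was left out 5 were lower and 0 higher, and GSY2 lost its call. On the BY4741 array at 6 h TPS1 was at -1.93 and GPH1 at -2.19 against BY4741 at T0h.

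Of 14 sucrose and maltose genes, 8 were lower and 0 higher (median -0.89), against 17.5% lower and 15.2% higher over all genes. SUC2, the invertase that splits sucrose outside the cell, was at -1.67, -1.15 and -1.82 in PE-2, JP1 and CAT-1, a mean of -1.55 ± 0.19 (SE, n = 3; limma adjusted p 0.00354). The isomaltase genes IMA2, IMA3 and IMA4 averaged -1.73, -1.86 and -1.83, of which IMA3 and IMA4 are near-identical copies that the probes cannot tell apart. MAL11, a maltose transporter, averaged -1.48. Leaving out the CAT-1 array left 5. Among 6 galactose genes 3 were lower, with GAL80, the repressor of the pathway, at -1.47.

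Of 17 hexose transporters 4 were higher and 1 lower, against 15.2% and 17.5% over all genes, with a median of 0.05, or -0.13 with median centring. HXT5, a transporter of slowly growing cells, was at 1.84, 1.68 and 1.80, a mean of 1.77 ± 0.15 (SE, n = 3; limma adjusted p 0.00172). HXT7, of high affinity, averaged 1.17 and lost its call without the CAT-1 array or with all 8 arrays in the fit. It is nearly identical to HXT6, at 1.21 and not called. Without CAT-1 1 hexose transporter was higher and 0 lower. The low-affinity transporters HXT1 and HXT3 were at -0.23 and 0.05, not called.

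**Figure D3:**
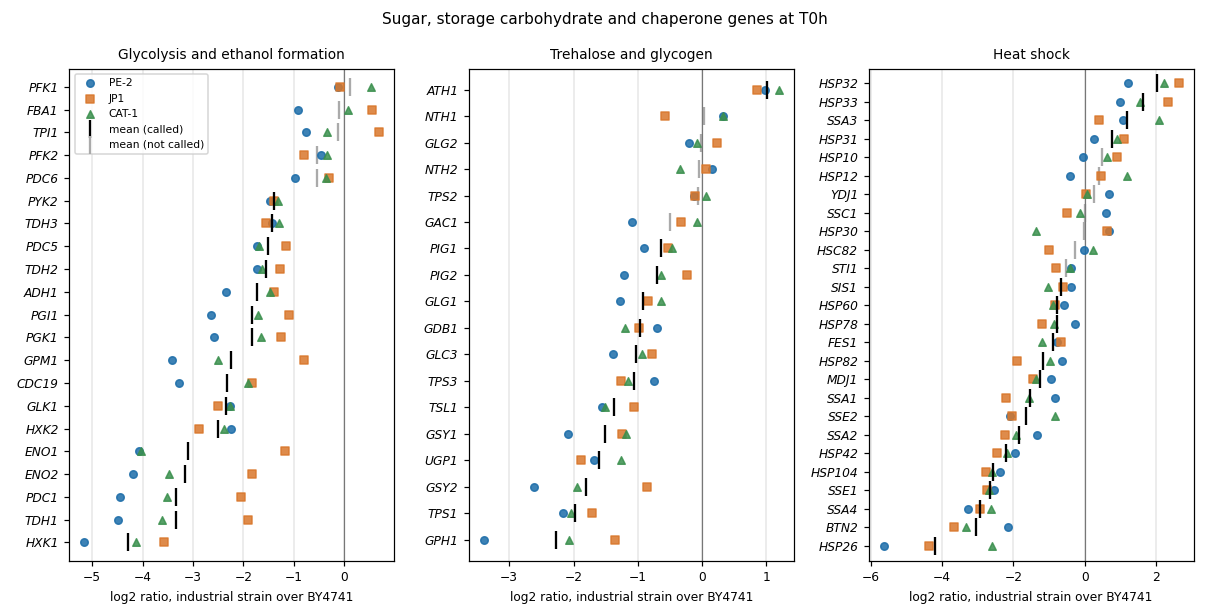
Log2 ratio (x axis) of all kept genes of 3 lists, with 1 point per strain and a bar at the mean, black where limma's adjusted p was under 0.05. In glycolysis 16 of 21 means are called below 0, in trehalose and glycogen 12 of 18 and in heat shock 15 of 26; JP1 lies right of the other strains for TDH1, PDC1, ENO1 and ENO2.

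Genes for carbon sources other than sugar were higher in part. Of 18 glyoxylate cycle and gluconeogenesis genes, 7 were higher and 1 lower (median 0.54), against 15.2% higher over all genes. SIP4, a regulator of gluconeogenic genes, was at 2.38, 1.28 and 1.49 in PE-2, JP1 and CAT-1, a mean of 1.72 ± 0.24 (SE, n = 3; limma adjusted p 0.00499). CAT2 and YAT2, carnitine acetyltransferases, averaged 1.45 and 1.40, and both calls were lost without CAT-1. ICL1, isocitrate lyase, and PCK1, phosphoenolpyruvate carboxykinase, were at -0.13 and -0.06 and not called. Leaving out CAT-1 left 1 member, with a list median of 0.61, and all 8 arrays in the fit gave 3 higher. The list median was 1.00 in PE-2, 0.11 in JP1 and 0.38 in CAT-1. In the TCA cycle 5 of 16 were lower and 1, CIT3, higher, against 17.5% and 15.2% over all genes. Without JP1 3 TCA genes were lower and 4 higher. LSC2, a subunit of succinyl-CoA ligase, averaged -1.54 and FUM1, fumarase, -1.20. Both calls, and that of IDP1 (-1.03), an isocitrate dehydrogenase, were lost without the CAT-1 array, when 0 TCA genes were lower and 1 higher.

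Respiratory genes were mixed. Of 39 oxidative phosphorylation genes, 8 were higher and 5 lower (median 0.27), against 15.2% higher and 17.5% lower over all genes. They numbered 1 and 1 without the CAT-1 array and 5 and 3 without JP1. COX5B, the cytochrome oxidase subunit used at low oxygen, was at -4.27, -2.48 and -2.73, a mean of -3.16 ± 0.34 (SE, n = 3; limma adjusted p 0.00284), while its aerobic counterpart COX5A was at 0.35 and not called. NDI1, the internal NADH dehydrogenase, averaged -1.15, and COX7, a small oxidase subunit, 1.19. Both calls were lost without CAT-1. Genes of the mitochondrial genome showed large ratios that differed by strain. COX1, an oxidase subunit, was at 1.20 in PE-2, 4.70 in JP1 and 5.66 in CAT-1, a mean of 3.85 ± 0.76 (limma adjusted p 0.0124), and its call was lost without CAT-1. COB, cytochrome b, averaged 2.86 with a range of 2.45 to 3.63. COX2 averaged 1.80, was lowest in PE-2, at 0.64, and lost its call without CAT-1. AI5_ALPHA, encoded in an intron of COX1, had red signals of 32.25, 25 and 105.75 in PE-2, JP1 and CAT-1, against green signals of 1602.5, 1557.5 and 2074 for BY4741. Its industrial side was well above background on 1 of the 3 arrays, so its measured mean ratio of -5.02 is not exact. ATP6, a subunit of ATP synthase, was at -5.07 and -3.56 in PE-2 and CAT-1 but 0.13 in JP1, and its call (mean -2.83, limma adjusted p 0.0472) was lost without PE-2 or CAT-1. Of the 9 genes on the list of mitochondrially encoded genes, which leaves out AI5_ALPHA, 5 were higher and 1 lower. They numbered 1 and 0 without the CAT-1 array, 4 and 2 without JP1 and 6 and 0 without PE-2.

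Heat shock genes were lower in majority. Of 26 measured, 15 were lower and 4 higher (median -0.78), against 17.5% lower and 15.2% higher over all genes. The share higher was thus near that of all genes. Without the CAT-1 array 9 were lower and 1 higher. HSP26, a small heat shock chaperone, had log2 ratios of -5.63 in PE-2, -4.35 in JP1 and -2.61 in CAT-1, a mean of -4.20 ± 0.51 (SE, n = 3; limma adjusted p 0.00354). BTN2, an aggregase that sorts misfolded proteins, averaged -3.04, SSA4, an inducible Hsp70, -2.94, SSE1, an Hsp110 exchange factor, -2.65, and HSP104, the disaggregase, -2.58. In all of these every strain was at -2.14 or lower. The higher members were HSP32 (2.03), HSP33 (1.62) and HSP31 (0.76), closely related chaperone-like genes whose probes may share transcripts, and SSA3 (1.18), an Hsp70. HSC82, the constitutive Hsp90, was at -0.27, and HSP12, a membrane stabiliser of stationary cells, at 0.41, both not called. Of 26 oxidative stress genes 8 were lower and 3 higher, or 3 and 1 without CAT-1 and 8 and 5 without PE-2. YHB1, a nitric oxide oxidoreductase, averaged -2.72 and TRR1, thioredoxin reductase, -1.94, while CTA1, the peroxisomal catalase, averaged 1.77 ± 0.19 (limma adjusted p 0.00279). Of 13 drying and stationary phase genes 6 were higher and 4 lower, or 3 and 2 without CAT-1. SPG1, needed in stationary phase, was at 1.06, 2.83 and 3.16 in PE-2, JP1 and CAT-1, and SIP18, a protein of desiccation tolerance, at 0.16, 3.37 and 3.41. In both PE-2 was lowest, and both calls were lost without the CAT-1 array. SPI1, a wall protein of weak acid tolerance, averaged -3.14, and RGI1, of energy metabolism, -1.95.

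Factors that assemble ribosomes were higher. Of 112 genes chosen by name families of such factors, 71 were higher and 1 lower (median 0.76), against 15.2% higher over all genes. LOC1, a nucleolar factor of large subunit assembly, was at 2.03 in PE-2, 2.00 in JP1 and 1.69 in CAT-1, a mean of 1.91 ± 0.16 (SE, n = 3; limma adjusted p 0.00172). DBP2, an RNA helicase, averaged 1.55, with 2.42 in PE-2 and 0.75 in CAT-1. CIC1, BRX1 and NOP16, all of the large subunit, averaged 1.42, 1.38 and 1.35, and UTP23, of the small subunit, 1.37. The families also take in genes of other function, among them DIP5 (1.48), a permease of acidic amino acids, and MAK3 (0.62), a protein acetyltransferase, both higher (DIP5 not without CAT-1), and IMP21 (-1.67), the lower one. Without the CAT-1 array 34 were higher and 1 lower (median 0.89). The median was 0.86, 0.93 and 0.52 in PE-2, JP1 and CAT-1. On the BY4741 array at 6 h LOC1 was at 1.37 and CIC1 at 0.93 against BY4741 at T0h.

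Ribosomal proteins themselves did not share this shift. Of 138 cytosolic ones 21 were higher and 17 lower (median -0.13), shares near or below the 15.2% and 17.5% over all genes. They numbered 2 and 2 without the CAT-1 array and 9 and 15 without JP1. RPS9A averaged 1.40 and RPL15A -1.67, both with every strain on the same side. These belong to gene pairs with near-identical copies, so part of the signal may come from the copy. Of 56 mitochondrial ones 13 were higher and 4 lower (median 0.27), with MRPL39 at 1.57 and MRPS16 at 1.42. These were 2 and 0 without CAT-1, and without JP1 5 and 2. Of 34 proteasome genes 3 were higher and 4 lower, and 0 passed without CAT-1, or 2 and 1 without JP1.

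**Figure D4:**
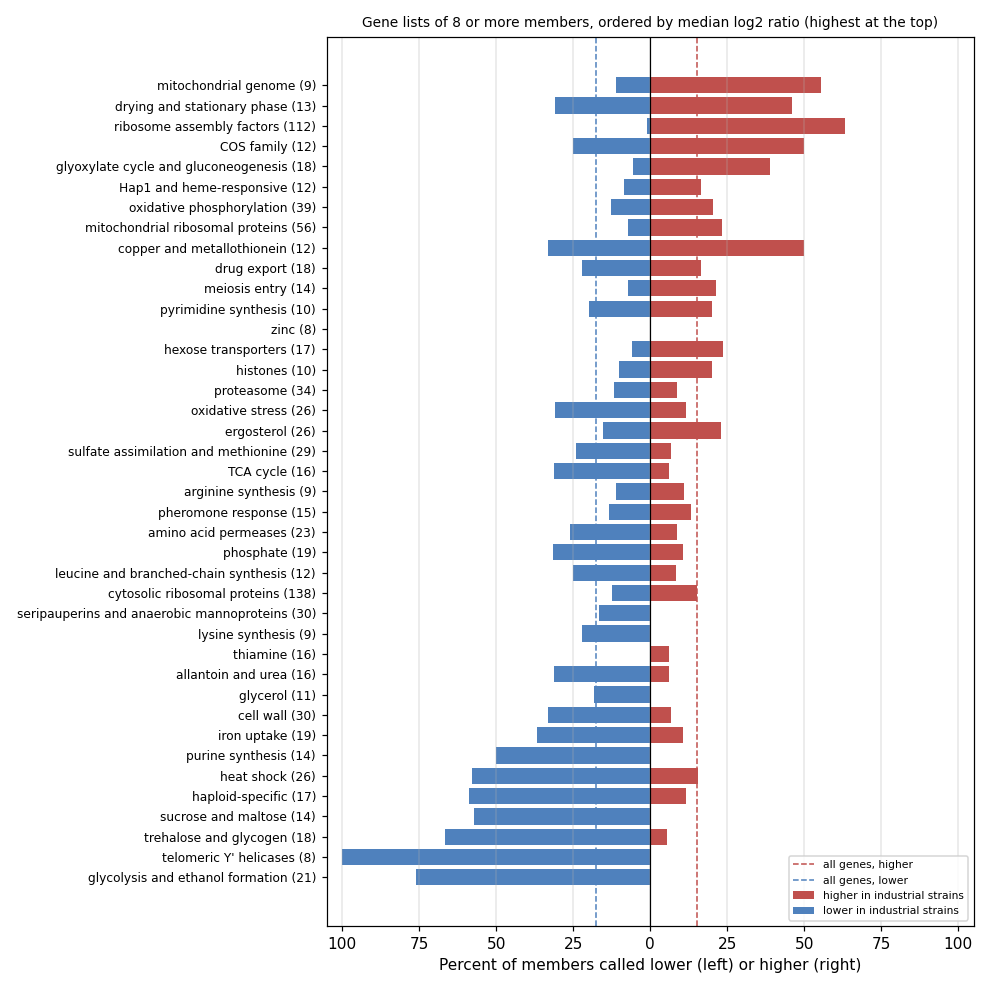
Percent of the kept members of each gene list of at least 8 members that were called higher (right) or lower (left) in the industrial strains, with the number of members in brackets and lists ordered by median log2 ratio. Dashed lines are the shares over all genes (15.2% higher, 17.5% lower); 71 of 112 ribosome assembly factors lie to the right and 16 of 21 glycolysis genes to the left.

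Metal and phosphate genes held some of the largest single differences. Of 12 copper genes 6 were higher and 4 lower (median 0.25), against 15.2% higher and 17.5% lower over all genes. Beside CTR3, higher members were CRS5 (1.51), a metallothionein, FRE1 (1.39), a reductase of copper and iron at the surface, ATX1 (1.37), a copper chaperone, and CTR1 (0.92), the other high-affinity transporter. The call of CRS5 was lost without CAT-1. CUP1-1 and CUP1-2, tandem copies of the main metallothionein gene that the probes cannot tell apart, gave CUP1-1 ratios of -4.58 in PE-2, -0.69 in JP1 and -4.58 in CAT-1. PE-2 and CAT-1 thus lay far below BY4741 and JP1 did not. The mean of CUP1-1 was -3.28 ± 0.73 (SE, n = 3; limma adjusted p 0.0179), and the call was lost without the CAT-1 array. The red signal of CUP1-1 was 4160 in PE-2, 18297 in JP1 and 1559 in CAT-1, against 24133 to 29952 in green for BY4741. At 6 h both JP1 and CAT-1 lay below BY4741 in CUP1-1, by differences of -2.84 and -3.36. Without the CAT-1 array 2 copper genes were higher and 0 lower, and without PE-2 5 and 2.

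Of 19 iron uptake genes 7 were lower and 2 higher (median -0.33), against 17.5% lower and 15.2% higher over all genes. FET4, a low-affinity iron and copper transporter, averaged -2.10, with a range of -2.62 to -1.74. FET3, the multicopper ferroxidase, was at -2.84, -0.34 and -2.17 in PE-2, JP1 and CAT-1, so JP1 stood nearest to BY4741, as in CUP1-1, and its call was lost without CAT-1. HMX1, heme oxygenase, averaged 1.63. On PE-2 and JP1 alone 3 were lower and 1 higher. Of 19 phosphate genes 6 were lower and 2 higher. SPL2, an inhibitor of low-affinity phosphate uptake, averaged -2.33 ± 0.25 (SE, n = 3; limma adjusted p 0.00284). PHO84, the high-affinity transporter, was at 0.05 in PE-2, -3.62 in JP1 and -2.62 in CAT-1, and its call (mean -2.06) was lost without JP1 or CAT-1, in the scanner software's ratio, after median centring and without the filter. PHM8, a nucleotide phosphatase, averaged 1.30. Of the phosphate genes 3 were lower and 1 higher without CAT-1, and 5 and 1 without PE-2. Of 8 zinc genes 0 were called by limma, with 1 higher and 1 lower at an unadjusted p under the threshold. Of 7 sodium pump and arsenic genes 0 were called, with 2 higher at an unadjusted p under the threshold. Without PE-2 2 genes of each of these lists were called higher.

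Of 14 purine genes 7 were lower and 0 higher (median -0.57), against 17.5% lower and 15.2% higher over all genes. ADE3, of folate metabolism, was at -1.16, -2.72 and -2.25 in PE-2, JP1 and CAT-1, a mean of -2.04 ± 0.30 (SE, n = 3; limma adjusted p 0.00534). ADE17 averaged -1.68 and ADE57 -1.26, enzymes of the purine pathway. Without CAT-1 3 purine genes were lower. BAT2, the cytosolic branched-chain aminotransferase, was at -2.76, -2.98 and -3.03, a mean of -2.92 ± 0.16 (limma adjusted p 0.00054), the lowest of 12 branched-chain genes, of which 3 were lower and 1 higher (1 and 0 without CAT-1, 5 and 1 without PE-2). On the BY4741 array at 6 h BAT2 was at -4.06 against T0h. Of 10 pyrimidine genes 2 were lower and 2 higher (median 0.10). URA8, a CTP synthase, averaged -2.59 and URA2, the first enzyme of the pathway, -1.68, while URA1, dihydroorotate dehydrogenase, averaged 0.57 and FUR4, the uracil permease, 0.54. The calls of URA1 and FUR4 were lost without any 1 of the arrays. Of 29 sulfate and methionine genes 7 were lower and 2 higher, or 1 and 0 without CAT-1, 4 and 2 without JP1 and 7 and 1 without PE-2. CYS3, cystathionine gamma-lyase, averaged -1.63, and MET32, a regulator of sulfur genes, 1.06, whose call was lost without CAT-1. Of 9 lysine genes 2 were lower and 0 higher, or 1 and 1 without JP1 and 1 and 0 without either other array. Of 6 histidine genes 2 were lower and 0 higher, and 0 passed without CAT-1. LYS1, of lysine synthesis, averaged -1.46 and HIS1, of histidine synthesis, -1.02, the second lost without CAT-1. Of 23 amino acid permeases 6 were lower and 2 higher, with PTR2, a peptide transporter, at -2.35, or 2 and 0 without CAT-1. Of 16 allantoin and urea genes 5 were lower and 1 higher, or 2 and 0 without CAT-1, with DAL7, a malate synthase, at -1.36. Arginine synthesis had 1 of 9 lower (ARG1, -0.71) and 1 higher (ARG2, 0.59). The call of ARG2 was lost without any 1 of the arrays. That of ARG1 was lost without JP1 or CAT-1, in the scanner software's ratio and without the filter on dim probes. Both were also lost after median centring and with all 8 arrays in the fit. Without PE-2 2 of the arginine genes were lower and 0 higher.

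Glycerol, histone and drug export genes were counted too, against 17.5% lower and 15.2% higher over all genes. Of 11 glycerol genes 2 were lower and 0 higher, GUT1, glycerol kinase (-1.21), and DAK1, a dihydroxyacetone kinase (-0.87). Both calls were lost without CAT-1, and without PE-2 3 were lower and 1 higher. Of 10 histone genes HTZ1, the H2A.Z variant, averaged 0.98 and HTB1 0.94, both higher, and HTB2, the other H2B gene, averaged -1.54 and was lower. HTZ1 and HTB1 lost their calls without CAT-1. Of 18 drug export genes 3 were higher and 4 lower, or 1 and 1 without CAT-1 and 5 and 3 without JP1. SNQ2, a multidrug pump, averaged 1.67 and lost its call without CAT-1, and TPO4, a polyamine exporter, averaged -1.81.

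The vitamin genes known for extra copies in fuel strains showed little at T0h, when 15.2% of all genes were higher and 17.5% lower. Of 6 SNZ and SNO genes of vitamin B6 synthesis, SNZ1 was lower, at -3.33 in PE-2, -1.14 in JP1 and -1.09 in CAT-1, and its call (mean -1.85) was lost without CAT-1. Without JP1 2 of the 6 were lower. SNZ2, SNO2, SNZ3 and SNO3, the copies near chromosome ends, averaged 0.08, -0.37, 0.36 and -0.19, and their calls were not made (limma adjusted p 0.12 to 0.75). Of 16 thiamine genes 1 was higher, THI73, a transporter-like gene, at 1.20, or 2 higher without PE-2 and 1 higher and 2 lower without JP1. THI5, THI11, THI12 and THI13, near-identical genes of thiamine precursor synthesis, averaged -0.39, -0.12, -0.42 and -0.08, not called. Of 5 biotin genes BIO2, biotin synthase (-1.35), and BIO4, dethiobiotin synthetase (-0.70), were lower, the second lost without CAT-1.

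Of 30 cell wall genes 10 were lower and 2 higher (median -0.27), against 17.5% and 15.2% over all genes. They numbered 3 and 0 without CAT-1, and 11 and 5 without PE-2 and likewise without JP1. PIR3, a wall protein with internal repeats, was at -3.92, -3.34 and -1.83 in PE-2, JP1 and CAT-1, a mean of -3.03 ± 0.37 (SE, n = 3; limma adjusted p 0.0036). CIS3, of the same family, averaged -2.22. TIR1, a mannoprotein induced by cold and low oxygen, averaged -2.82, the lowest of 30 seripauperin and anaerobic mannoprotein genes, of which 5 were lower and 0 higher (3 and 0 without CAT-1), a share lower near the 17.5% of all genes. Most of that family are near-identical copies. FLO8, the flocculin activator that S288C carries as a truncated allele, averaged -0.82, and FLO11, the adhesin it controls, was at 0.38, 1.40 and 2.82. The FLO11 ratio was highest in CAT-1, and both calls were lost without that array. Of 6 flocculin genes 1 was higher and 2 lower, 0 passed without CAT-1, and 2 and 3 passed without JP1. Of 4 aquaporins 2 were lower and 0 higher, or 1 and 0 without CAT-1, with AQY3, an aquaglyceroporin, at -2.16. Of 26 ergosterol genes 6 were higher and 4 lower (3 and 1 without CAT-1), with HMG1, an HMG-CoA reductase, at 1.65 and ERG3, a sterol desaturase, at -2.21. HAP1, the heme-responsive regulator, is known to be weakened by a transposon in the S288C lineage. Of 12 genes under Hap1 and heme, 2 were higher (HMG1 and ERG11, at 0.68) and 1 lower (YHB1), or 1 and 2 without JP1 and 1 and 1 without PE-2, and CYC1, its classic target, was at 0.50 and not called. The call of ERG11 was lost without any 1 of the arrays.

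Several genes that exist in repeated copies differed. All 8 YRF1 genes, Y' helicases that are near-identical copies and so give in effect 1 measurement, were lower, at -1.13 to -1.04. YRF1-8 was at -1.31 in PE-2, -1.38 in JP1 and -0.70 in CAT-1, so CAT-1 lay nearest to BY4741, and without CAT-1 4 of the 8 passed. Of 12 COS genes, of membrane protein turnover, 6 were higher and 3 lower, against 15.2% and 17.5% over all genes. COS4 was at 2.29, 2.04 and 1.85, a mean of 2.06 ± 0.17 (SE, n = 3; limma adjusted p 0.00163), and COS6 at -4.08, -2.76 and -2.79, a mean of -3.21 ± 0.28 (limma adjusted p 0.0018). At 6 h COS4 lay 1.84 and 1.37 above BY4741 in JP1 and CAT-1, and COS6 at -4.68 and -2.79 to it. ASP3-1 to ASP3-4, 4 near-identical copies of the nitrogen-regulated asparaginase gene on chromosome XII, were lower at -1.54 to -1.51 and again count as 1 measurement. ASP3-1 was at -2.05, -1.59 and -0.99 in PE-2, JP1 and CAT-1.

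The ASP3 genes belong to the longest run of neighbouring measured genes called in 1 direction. That run held 8 genes of chromosome XII, from ASP3-1 to YLR162W, all lower (median -1.25), including YLR156W, YLR159W and YLR161W, which lie between or next to the repeats. A run of 6 on chromosome XIV, from DMA2, a ubiquitin ligase, to NOP15, of ribosome assembly, was higher (median 1.35) and held CYB5, cytochrome b5, at 2.02. A run of 5 on chromosome V was lower (median -2.12), from SPI1 through UBP3, a ubiquitin protease, YER152C and PET122, a mitochondrial translation activator, to OXA1, the inner membrane insertase. Its members averaged -3.14, -0.77, -2.30, -2.12 and -1.56. Another run of 5, on chromosome XIV from PEX17, of peroxisome import, to SSB2, a ribosome-bound Hsp70, was higher (median 0.79), and 4 neighbours on chromosome III from EMC1 to the glucokinase gene GLK1 were lower (median -1.32). Each of these runs lost at least 1 member's call without the CAT-1 array. The medians of the 16 chromosomes lay between -0.21 and 0.06 on single arrays. Chromosome I had the lowest median of mean ratios, -0.18, with 24 of 87 genes lower (27.6%, against 17.5% over all genes) and 12 higher. Its median was below 0 on all 3 arrays. Among the 10 outermost measured genes of each chromosome end, 15.6% were higher and 19.1% lower, against 15.5% and 18.0% of the rest.

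The strains differed from each other in some genes, which were chosen for that difference and are given as values without a test. ENA5, a sodium pump, had red signals of 14136.5 in PE-2, 198 in JP1 and 309 in CAT-1, against 377, 326.5 and 347 for BY4741. Its log2 ratios were 3.62, -0.15 and -0.49, while those of its close relatives were -0.37, 0.38 and -0.79 for ENA1 and -0.04, 1.21 and 0.74 for ENA2. PE-2 alone was thus high in ENA5. PE-2 was also far below the others in AAD14, an aryl-alcohol dehydrogenase (-4.11, against 0.12 in JP1 and -0.81 in CAT-1), in EGO4 (-4.07, against 0.13 and -1.11) and in ATP8, a mitochondrial ATP synthase subunit (-4.42, against -0.52 and -0.65). In SPS100, a spore wall gene, PE-2 was at -0.48, against 3.64 in JP1 and 2.51 in CAT-1.

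JP1 stood apart from the other strains in CTS1 and DSE1. CTS1, the endochitinase that frees daughter cells, was at 2.34 in JP1, against -2.11 in PE-2 and -0.89 in CAT-1. DSE1, a daughter-specific gene, was at 2.87 in JP1, against -0.74 in PE-2 and 0.42 in CAT-1. CYC7, the hypoxic cytochrome c, was at 2.42 in JP1, against -0.65 and -0.58. CAT-1 was highest in CSS3, a gene for a secreted protein (1.69, against 0.24 in PE-2 and -2.06 in JP1). It was lowest in AQR1, an exporter of organic acids and amino acids (-1.43, against 1.33 and 0.81), and in ZNF1, a regulator of respiratory growth (-2.38, against 0.07 and 0.12).

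**Figure D5:**
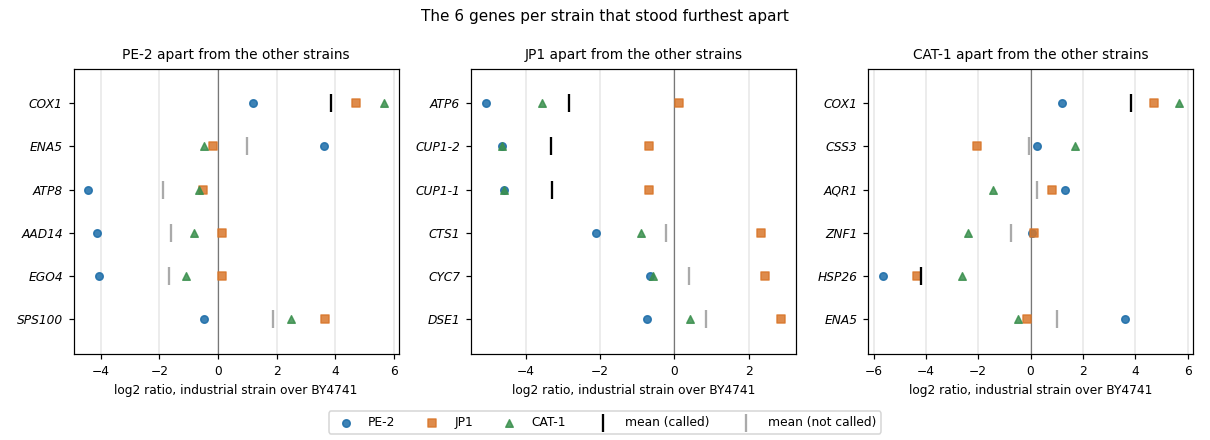
Log2 ratio (x axis) of the 6 named genes per strain with the largest difference between that strain and the mean of the other strains, with 1 point per strain and a bar at the mean, black where limma's adjusted p was under 0.05. ENA5 is high in PE-2 alone, at 3.62, and the CUP1 genes lie near -0.7 in JP1 and near -4.6 in the others.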

How the data were processed

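The 3 T0h arrays carried RNA of PE-2, JP1 or CAT-1 in red and of BY4741 at T0h in green. Per the file headers, the scanner software was Agilent Feature Extraction, version 10.10.1.1. Its deposited median signal and background of each spot are intensity readings in pixel brightness, and its deposited log ratio is the log10 of red over green. Its deposited marks of bright, uneven or outlying spots are of another kind (other), being yes or no. Limma is named, without a version, per the submitters' processing notes. The unit of the authors' deposited value table is not stated in the sources used here, and it was only checked.

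Spots marked uneven or outlying were left out. Signals were corrected by normexp (offset 50) and loess within each array, control spots at weight 0, in limma 3.58.1 under R 4.3.3. Log2 ratios of the 2 spots of a probe were averaged. Of 6256 gene probes, 5938 were kept, those that the software marked well above background in red or green on 3 or more of the 8 arrays. Symbols and chromosome order came from the R64 gene table, in which 5756 names were found and 500 were not. The mean ratio of 3 strains was tested against 0 by limma's moderated test, two-sided, with Benjamini-Hochberg adjustment over all genes and a threshold of 0.05. The fit was tested on simulated data. The number of arrays limits the precision, and intensities carry no counts.

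Members and gene lists were chosen with earlier results of these data known. Named by rule were the 15 largest called genes each way with a standard name and 1 sign on all arrays, the 4 largest called members of each list with at least 2 called, all strain markers, asparaginase and vitamin B6 genes, the 6 genes per strain furthest apart and the 5 longest runs of at least 3 neighbours. Other genes are given as list members or were chosen after their values were seen. Alternatives were no background correction, the scanner's log ratio, median centring, 3 other filters on dim probes, uneven and outlying spots kept, all 8 arrays in the fit, an intensity trend and each array left out. The result of 1 gene list is not reported here.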

Additional observations from a re-analysis of the deposited data

Results flagged for a closer look

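In 3 of the named genes the strains lay on opposite sides of BY4741 by at least 1 on the log2 scale, a difference that was not tested, since each strain has 1 array. In CTS1, the endochitinase of daughter cell separation, JP1 lay above PE-2 by 4.45. In CSS3 CAT-1 lay above JP1 by 3.75. In AQR1, an exporter, PE-2 lay above CAT-1 by 2.76. These genes were picked for their spread between strains.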

How the results depend on the processing

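The count of 1939 genes was 1376 to 1968 under the 9 alternatives that kept all arrays of the comparison, and 532 to 1937 when 1 array was left out. Higher genes (902) numbered 203 to 914 and lower genes (1037) 329 to 1023 with 1 array left out, lowest without CAT-1. Those at least 2-fold different (773) then numbered 532 to 880. With all arrays of the comparison kept they numbered 749 to 1146, the most with the scanner's log ratio. With median centring 671 genes were lower, and the cause was not tested. Higher genes were 46.5% of the calls, 38.2% without CAT-1 and 51.2% with centring. Over the gene lists, 80 counts of called members above 0 moved by over 1.5 times in 65 cases without CAT-1, 20 without JP1, 15 without PE-2, 24 with centring, 22 with all 8 arrays in the fit and 14 with the scanner's log ratio. No list median of at least 0.5 in size changed sign under these, but sizes did change. With the scanner's log ratio the median was -1.58 for haploid-specific genes (-0.86 in the main fit) and -1.86 for sucrose and maltose genes (-0.89). It was 5.13 for the genes that BY4741 lacks (2.13), while that of glycolysis was -1.84 (-1.82). Of 230 named genes tested, calls were lost by 91 without CAT-1, 15 without JP1, 15 without PE-2, 27 with centring, 24 with all 8 arrays and 14 with the scanner's ratio. CSS3 (mean -0.04, not called) was at -0.91 to 0.97 with 1 array left out, and was called at 0.97 without JP1. Among others, centring ended the calls of BAR1, FLO11, UBP3, PEX17 and EMC1. Fitting all 8 arrays ended those of MET17, BAR1, HXT7, AXL1, YAT2, FLO11, ERG11 and DMA2. The scanner's ratio ended those of SIP18, COX7, ATP6, MATALPHA1, DMA2, SSB2 and EMC1. The pairing of red and green within each array entered through the ratio, and with 1 array per strain no further pairing was possible. Green signals near background limit 214 genes to a bound.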
